A study of Mus musculus with 9 samples.

Results

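Transcripts of 4 genes of GABA metabolism and signalling, Gad1, Abat, Aldh5a1 and Gabbr1, were followed in the molar enamel organ of mouse pups raised under early life adversity (ELA) and of control pups. They were chosen by name, with earlier results of these data known. They comprise enzymes that make and break down GABA and the first subunit of its metabotropic receptor. Together they make up 4 of the 54532 genes in the count table. All 4 were among the 15909 genes with enough counts to be compared. The libraries came from first-molar enamel organs of 5 ELA and 4 control males at postnatal day 12 (P12), with 1 library per mouse. ELA was imposed by limiting bedding and nesting material from P2 to P12. The paper left out its lightest ELA mice and calls the controls weight-matched. It still gives the sequenced ELA males a lower mean body weight than the control males. Body weight did not enter the tests here. Pups of both groups were C57BL/6 offspring of Crh-IRES-Cre dams and Ai14 tdTomato males, so the control mice carry the Cre driver and the red reporter as well. Each mouse is called by its title (t-203 or t-205 and a suffix for ELA, c-202 or c-204 and a suffix for control). The labels do not say what the title numbers mean. Pups of a group may share a litter, yet each pup was counted as an independent replicate in the tests.

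GABA, the main inhibitory transmitter of the brain, is made from glutamate by the glutamate decarboxylases GAD67 (Gad1) and GAD65 (Gad2), which need pyridoxal phosphate. GABA transaminase (Abat) turns it into succinic semialdehyde inside mitochondria, and succinic semialdehyde dehydrogenase (Aldh5a1) oxidizes that to succinate, so that the steps together bypass part of the tricarboxylic acid cycle and are called the GABA shunt. GABA acts on GABA-A receptors, which are chloride channels, and on the GABA-B receptor, a G protein-coupled receptor that needs both of its subunits, Gabbr1 and Gabbr2, at the cell surface. The enzymes are also found outside the nervous system. In pathway databases the shunt is part of butanoate metabolism, which the study considered in ELA enamel organs.

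Library depth was 18056774 to 32110160 counts for ELA and 18683431 to 20831736 counts for control mice. Levels are given as CPM, counts scaled to a common library size with TMM factors, and levels of different genes are compared as FPKM, which also divides by gene length. The tissue label was borne out by the ameloblast markers, 8 genes of enamel matrix proteins and proteases, which together took 78820 to 167800 CPM. One ELA library, of mouse t-203-1-4, stood apart: 10 neuron markers summed to 542.1 CPM in it and to 60.55 to 113.1 CPM in the other 8 libraries, and 8 markers of cerebellar granule cells to 364.6 CPM against 1.351 to 2.553 CPM. Results for the GABA genes are therefore given with and without this mouse. Because the tissue was sequenced in bulk, fewer cells of a type and less RNA per cell cannot be told apart.

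Gad1 was the most abundant of the 4 genes per length, with a mean of 14.2 FPKM over the 9 mice, and 79.2% of the genes compared had a lower mean. Abat followed at 9.17 FPKM, Gabbr1 at 3.97 FPKM and Aldh5a1 at 2.41 FPKM. Neighbours in this order overlapped between mice, but within a mouse the order was steady. Gad1 exceeded Abat in 8 of 9 mice, Abat exceeded Gabbr1 in 9 of 9, and Gabbr1 exceeded Aldh5a1 in 8 of 9. The counting SD was at most 2.64% of a value for Gad1, where the CV between mice was 25.3% in ELA and 25.2% in control. For Aldh5a1, the member with the fewest reads, it was 4.57% to 7.04%. This was below, though nearer to, the CV between mice of 8.44% in ELA and 12.7% in control.

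The enamel organ held the transcript of one glutamate decarboxylase and almost none of the other. Gad2 was compared in no test, because its counts were 0 in 7 of the 8 mice other than t-203-1-4, where a count of 0 allows up to 3 reads or 0.144 to 0.164 CPM depending on the library. The remaining mouse of these 8 had 6 reads of Gad2, and mouse t-203-1-4 had 123 reads, or 5.379 CPM. Gad1 in that mouse stood at 88.16 CPM, inside the range of 78.67 to 144.8 CPM of the other 8. The vesicular GABA transporter Slc32a1 behaved like Gad2, with at most 0.3398 CPM in 8 mice and 6.516 CPM in mouse t-203-1-4. Gad1 was thus measured at 1437 reads or more in every library, while Gad2 and Slc32a1, markers of GABA-releasing neurons, were at or near 0 in all but one.

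The start regions of the paralogues Gad1 and Gad2 are shown because one of the pair was measured in every enamel organ and the other in hardly any, and that of Aldh5a1 because its values did not overlap between the groups. Each sequence covers the 250 bases before the RefSeq transcription start on GRCm38.p6, written 5′ to 3′ on the strand of the gene, with a TATA box (TATAAA) or GC box (GGGCGG) in capitals on either strand. Of the members, 3 of 4 were matched to RefSeq start regions; Abat was not.
Gad1, chr2:70561879-70562128, plus strand: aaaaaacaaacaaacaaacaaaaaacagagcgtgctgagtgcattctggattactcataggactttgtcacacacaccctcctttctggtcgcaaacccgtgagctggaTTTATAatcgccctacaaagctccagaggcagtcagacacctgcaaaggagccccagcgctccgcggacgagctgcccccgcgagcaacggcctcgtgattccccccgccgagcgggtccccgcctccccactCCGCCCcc
Gad2, chr2:22622077-22622326, plus strand: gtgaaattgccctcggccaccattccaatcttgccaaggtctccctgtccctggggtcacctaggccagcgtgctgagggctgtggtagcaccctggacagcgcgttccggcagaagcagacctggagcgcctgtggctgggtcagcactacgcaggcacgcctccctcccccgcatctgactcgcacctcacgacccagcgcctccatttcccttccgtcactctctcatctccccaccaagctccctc
Aldh5a1, chr13:24937662-24937911, minus strand: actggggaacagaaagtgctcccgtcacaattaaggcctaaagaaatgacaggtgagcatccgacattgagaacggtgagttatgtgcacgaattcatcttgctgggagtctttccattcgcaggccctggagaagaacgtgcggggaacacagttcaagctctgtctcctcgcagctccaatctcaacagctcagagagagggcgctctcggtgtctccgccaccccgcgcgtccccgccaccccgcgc

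The Gad1 window lies inside the annotated gene, whose span begins upstream of it. In the Gad1 sequence 1 TATA box and 1 GC box were found, both read on the opposite strand. Neither motif was found in the Gad2 or the Aldh5a1 sequence, and the Gabbr1 sequence held 2 GC boxes. Of 32851 RefSeq start regions of this length, 12.4% hold the TATA box and 32.7% the GC box. The homeodomain core TAATTA, held by 4.84% of them, and the E-box CACGTG, held by 6.02%, were found in none of the 4 sequences. All 4 held more CpG than the median of 6, with 17 in Gad1, 13 in Gad2, 17 in Aldh5a1 and 16 in Gabbr1. Of all start regions, 76.5%, 68.5%, 76.5% and 74.6% had fewer, so such counts are common. A match is a description of the letters and was not tied to any measurement here.

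Gad1 (ENSMUSG00000070880, chromosome 2, 70553072 to 70602014, plus strand, GRCm38), which makes GABA, did not differ between ELA and control enamel organs beyond the spread between mice. In the control mice it measured 85.48, 92.93, 136.0 and 141.1 CPM, and in the ELA mice 78.67, 88.16, 93.75, 114.7 and 144.8 CPM. The groups overlapped over nearly their whole range, and both the highest and the lowest value belonged to ELA mice titled t-205. The ELA mean was 104 ± 26.3 CPM (SD, n = 5), and the control mean was 113.9 ± 28.7 CPM (SD, n = 4). The log2 fold change of ELA over control was -0.13 (SE 0.21), with a 95% interval of -0.59 to 0.33 and an adjusted p of 0.999 from edgeR's quasi-likelihood test. On the linear scale the interval runs from 0.665-fold to 1.25-fold. An exact two-sided permutation test over the 126 splits of the mice gave p = 0.603.

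Abat (ENSMUSG00000057880, chromosome 16, 8513429 to 8621568, plus strand), the first enzyme of GABA breakdown, had a 1.54-fold higher level in ELA than in control mice but did not pass the adjusted p. It measured 44.32, 50.13, 58.12 and 66.11 CPM in the control mice. In the ELA mice it measured 65.06, 65.43, 87.45, 89.61 and 113.4 CPM. The groups met only at their edges: the highest control mouse, c-202-1-2, lay just above the 2 lowest ELA mice, and the highest ELA value was that of mouse t-203-1-4. The means were 84.2 ± 20.1 CPM (SD, n = 5) and 54.7 ± 9.5 CPM (SD, n = 4). The log2 fold change was 0.62 (SE 0.19, 95% interval 0.22 to 1.03), with an unadjusted p of 0.00579 and an adjusted p of 0.445 in edgeR. By unadjusted p, Abat ranked 207 of the 15909 genes. The exact two-sided permutation test gave p = 0.0476. Without mouse t-203-1-4 the ELA mean was 76.9 ± 13.5 CPM (SD, n = 4), the log2 fold change 0.49 and the exact permutation p 0.0857.

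Aldh5a1 (ENSMUSG00000035936, chromosome 13, 24907579 to 24937661, minus strand), the enzyme after Abat, was the one member whose groups did not overlap. In the control mice it measured 9.73, 11.31, 11.61 and 13.29 CPM. The ELA mice measured 14.23, 14.44, 14.8, 15.64 and 17.4 CPM. Every ELA mouse lay above every control mouse, and the highest was again t-203-1-4. The means were 15.3 ± 1.29 CPM (SD, n = 5) and 11.5 ± 1.46 CPM (SD, n = 4), a 1.33-fold difference. The log2 fold change was 0.41 (SE 0.14, 95% interval 0.10 to 0.73), with an unadjusted p of 0.0134 and an adjusted p of 0.569 in edgeR. The exact two-sided permutation test gave p = 0.00794, the smallest these 9 mice allow. Without mouse t-203-1-4 the ELA mice still lay above the control mice, with a log2 fold change of 0.36. The exact two-sided permutation p was then 0.0286, the smallest that 4 against 4 mice allow.

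Gabbr1 (ENSMUSG00000024462, chromosome 17, 37045966 to 37075067, plus strand), which binds GABA in the GABA-B receptor, differed most between mice of one group and took its sign from a single mouse. It measured 23.06, 23.27, 25.68 and 39.98 CPM in the control mice. The ELA mice measured 18.05, 25.13, 27.64, 31.54 and 63.1 CPM. The lowest and the highest of all 9 mice were ELA mice, and the highest was t-203-1-4. The ELA mean was 33.1 ± 17.5 CPM (SD, n = 5), and the control mean was 28 ± 8.08 CPM (SD, n = 4). The log2 fold change was 0.24 (SE 0.33, 95% interval -0.48 to 0.96), with an adjusted p of 0.999 in edgeR and p = 0.738 in the exact two-sided permutation test. Without mouse t-203-1-4 it was -0.13.

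**Figure D1:**
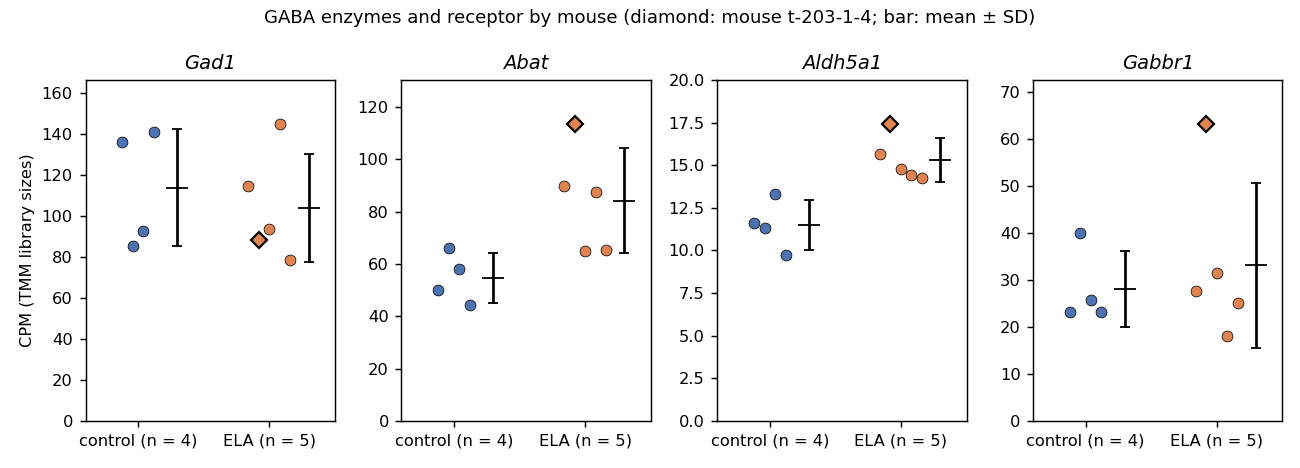
CPM of Gad1, Abat, Aldh5a1 and Gabbr1 (vertical axes, each from 0) in every control mouse (blue, n = 4) and ELA mouse (orange, n = 5), with the mean ± SD of each group in black and mouse t-203-1-4 as a diamond. Aldh5a1 is the panel without overlap, with control mice at 9.73 to 13.29 CPM and ELA mice at 14.23 to 17.4 CPM, and the diamond is highest in Abat, Aldh5a1 and Gabbr1 but not in Gad1.

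No member passed the adjusted p of 0.05 in edgeR, which 0.0629% of all genes compared did, in either direction. At an unadjusted p below 0.05, 2 of 4 members were higher in ELA and 0 were lower, where 3.56% of all genes were higher and 2.89% lower. This was lost for Abat without the mice titled c-204 (unadjusted p 0.0558 in edgeR) and for Aldh5a1 without those titled t-203 (0.145) or c-202 (0.0754). The paper had already named Abat and Aldh5a1 as upregulated in its RNA-seq of ELA mice. Counts of members set against all genes are therefore no independent test. ELA values lay wholly above control values in 1 of 4 members and in 1.39% of all genes. DESeq2, the tool of the study, called 0.718% of its genes and none of the members, with adjusted p of 0.188 for Abat and 0.42 for Aldh5a1. Over 23 alternative settings the log2 fold change ranged from 0.48 to 0.73 for Abat (adjusted p 0.162 to 1) and from 0.32 to 0.49 for Aldh5a1 (adjusted p 0.218 to 1).

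**Figure D2:**
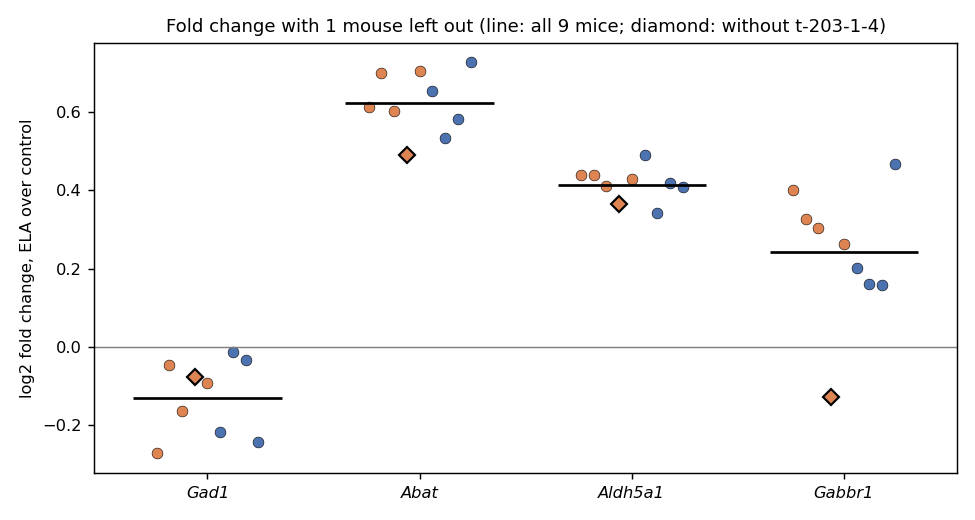
Log2 fold change of ELA over control (vertical axis) for each of the 4 genes when 1 mouse is left out (points; orange for a left-out ELA mouse, blue for a control mouse, diamond for t-203-1-4) and with all 9 mice (black line). Abat stays between 0.49 and 0.73 and Aldh5a1 between 0.34 and 0.49, Gad1 stays below 0, and Gabbr1 falls to -0.13 without t-203-1-4.

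Set against each other, the transcript levels of Abat and Gad1 differed in their ratio from mouse to mouse. The FPKM of Abat divided by that of Gad1 was 0.31, 0.363, 0.616 and 0.763 in the control mice. It was 0.596, 0.684, 0.77, 0.82 and 1.27 in the ELA mice. The groups overlapped, and the ratio exceeded 1 only in mouse t-203-1-4. The ratio was formed after the values were seen and was not tested.

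Markers of some cell types in the dissected tissue also moved with the group. Of the 8 ameloblast markers, 7 had a positive log2 fold change, of which 4 reached an unadjusted p below 0.05, and their sum was 104800 to 167800 CPM in ELA and 78820 to 104400 CPM in control mice. Of the 10 markers of dental mesenchyme and fibroblasts, 10 had a negative log2 fold change, of which 6 reached an unadjusted p below 0.05. Their sum was 12030 to 23410 CPM in ELA and 15730 to 31070 CPM in control mice. No marker of these 2 lists was at 0 in all mice. The 5 osteoclast markers and the 6 compared leukocyte markers also all had a negative log2 fold change, 1 and 3 of them at an unadjusted p below 0.05. Among all genes compared, 52.6% had a positive log2 fold change, and 3.56% were higher and 2.89% lower in ELA at this p in edgeR. The 6 erythrocyte markers summed to 159.7 to 378.4 CPM in ELA and 364.1 to 862.2 CPM in control mice, and 5 of them had a negative log2 fold change. The 7 compared neuron markers (median log2 fold change 1.93) and the 2 compared markers of cerebellar granule cells were all positive. Both lists had their highest sum in mouse t-203-1-4. The epithelium, osteoblast and endothelium lists were mixed in direction. Of 6 epithelium markers, 4 were positive, and their sum was 7762 to 13490 CPM in ELA and 9516 to 15130 CPM in control mice. Of 5 osteoblast markers 2 were positive, and of 5 endothelium markers 4, with median log2 fold changes of -0.043 and 0.016. The part of cell makeup in the Abat and Aldh5a1 values was not tested.

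Genes that supply glutamate to the pathway had 5 of 18 members higher in ELA at an unadjusted p below 0.05, 0 lower, and 0 past the adjusted p in edgeR. Of all genes, 3.56% were higher and 2.89% lower at this unadjusted p. The median log2 fold change of the 18 was 0.35 and 12 of 18 were positive, where 52.6% of all genes were positive with a median of 0.013. Without mouse t-203-1-4, 9 of 18 were positive and the median was 0.013, and 5 genes were higher at the unadjusted p. Got1, the cytosolic aspartate transaminase, which interconverts glutamate and 2-oxoglutarate, measured 13.97, 14.19, 16.88 and 17.46 CPM in the control mice. It measured 21.71, 24.75, 27, 32.62 and 34.85 CPM in the ELA mice, without overlap. Its log2 fold change was 0.85 (SE 0.16), with an adjusted p of 0.11 in edgeR; it passed in DESeq2 and in 3 other alternatives, but not with counts summed by title number (adjusted p 0.372 in edgeR). Its mitochondrial counterpart Got2 was at 235.5 to 284 CPM in ELA and 158.8 to 206.1 CPM in control mice (log2 fold change 0.49, adjusted p 0.344 in edgeR). Slc25a12, the mitochondrial aspartate and glutamate carrier, had a log2 fold change of 0.41, and Gls2, a glutaminase, of 0.54. Slc1a2, a glial glutamate transporter, was the other one of the 5 and reached 35.55 CPM in mouse t-203-1-4, where control mice had at most 1.451 CPM.

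The enzymes of the tricarboxylic acid cycle that the shunt bypasses, and those that take up its succinate, all had a positive log2 fold change: 11 of 11, with a median of 0.22, of which 3 were higher at an unadjusted p below 0.05 and 0 passed the adjusted p in edgeR. The smallest of the 11 values was 0.008. Among all genes compared, 52.6% had a positive log2 fold change and 3.56% were higher at this p in edgeR. Without mouse t-203-1-4, 11 of 11 were positive, the median was 0.25 and 2 genes were higher at the unadjusted p. The succinate dehydrogenase subunits Sdhb and Sdha, which oxidize the succinate that Aldh5a1 delivers, had log2 fold changes of 0.39 (SE 0.14) and 0.33 (SE 0.13). Sdhb was at 110.5 to 155.6 CPM in ELA and 88.39 to 112.4 CPM in control mice, so the groups overlapped slightly. Dlst, a subunit of 2-oxoglutarate dehydrogenase, was at 273.5 to 355.8 CPM in ELA and 230.9 to 268.1 CPM in control mice, without overlap (log2 fold change 0.31, SE 0.13). Ogdh, the first subunit of that complex, had a log2 fold change of 0.28 (SE 0.17) and overlapping groups.

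**Figure D3:**
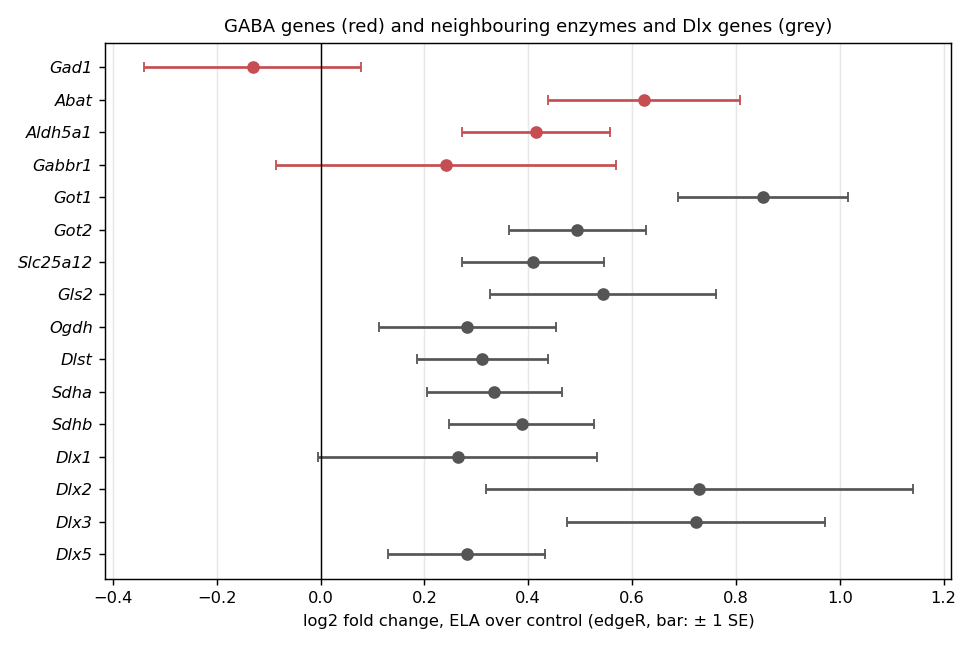
Log2 fold change of ELA over control from edgeR (horizontal axis; points, with bars of ± 1 SE) for the 4 GABA genes (red) and, in grey, for enzymes of glutamate supply, of the step from 2-oxoglutarate to fumarate, and Dlx genes. Gad1 at -0.13 is the one point below 0, and Got1 at 0.85 the farthest above it.

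Other routes to and from GABA showed no gene at an unadjusted p below 0.05 in either direction. Of 10 compared genes of the route from putrescine, 5 were positive and 5 negative, and ornithine decarboxylase (Odc1) was at 307 to 529.8 CPM in ELA and 290.1 to 562.4 CPM in control mice. Aldh9a1, an aldehyde dehydrogenase that can form GABA, was at 38.54 to 43.71 and 33.77 to 40.56 CPM. Maoa, a monoamine oxidase, and Sat1, a polyamine acetyltransferase, also overlapped between the groups. Of 4 genes of succinic semialdehyde side reactions, 3 were positive, and Akr1a1, an aldehyde reductase, was the most abundant at 343.9 to 511.2 CPM over all mice, ahead of Akr7a5, D2hgdh and Adhfe1. Of 4 genes that supply pyridoxal phosphate, the cofactor of Gad1 and Abat, 3 were positive, and Pdxp, a pyridoxal phosphate phosphatase, was highest in mouse t-203-1-4 at 9.752 CPM against 2.001 to 3.797 CPM in control mice. The kinase Pdxk and the binding protein Plpbp overlapped between the groups.

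Receptor genes other than Gabbr1 were near the limit of detection outside mouse t-203-1-4. Gabbr2, the obligate partner of Gabbr1, measured 22.26 CPM in that mouse and 0.1095 to 1.174 CPM in the other 8. Per length, it averaged 0.0721 FPKM in those 8 mice, where Gabbr1 averaged 3.45 FPKM. Of 19 GABA-A subunits, 7 had enough counts to be compared, 11 were highest in mouse t-203-1-4, and none exceeded 1.21 FPKM in any other mouse. Gabra6, a subunit of cerebellar granule cells, was at 18.1 CPM there and at most 0.1055 CPM elsewhere. The compared subunits Gabra2, Gabra3, Gabra4 and Gabrb2 were highest in that mouse as well, at 5.248, 5.729, 3.28 and 11.63 CPM. Gabre, the epsilon subunit, was the most abundant per length outside that mouse and measured 1.531 to 2.961 CPM in ELA and 2.268 to 5.753 CPM in control mice.

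The direction of the receptor lists turned without that mouse. With all mice 6 of the 7 GABA-A subunits were positive (median 0.91), and without it 2 of 5 were positive (median -0.039). Of the GABA-B receptor subunits and their G protein and other partners, 9 of 12 compared genes were positive with all mice and 4 of 11 without it. The potassium channel genes of this list had too few counts to be compared. The inhibitory G protein subunit Gnai1 was at 38.34 to 55.95 CPM in ELA and 50.39 to 56.96 CPM in control mice, and the beta subunit Gnb1 at 350.5 to 483 and 324.5 to 426.2 CPM. The transporters Slc6a6 and Slc6a8, which mainly carry taurine and creatine, were the abundant members of the GABA transporter family, at 166.8 to 322.7 and 145.6 to 256.6 CPM over all mice, and neither differed between the groups beyond the spread. With Slc6a11, a GABA transporter of glia, 2 of 3 compared transporters were positive. Of the receptor anchoring and trafficking genes 7 of 10 were positive with all mice and 4 of 10 without mouse t-203-1-4, and of the chloride transporters 4 of 4 both ways, among them Slc12a2, the sodium, potassium and chloride importer, at 43.37 to 106.4 CPM in ELA and 43.06 to 55.61 CPM in control mice. The groups overlapped in the trafficking genes Gabarapl1, Arfgef2 and Trak1 and in the potassium and chloride exporters Slc12a5 and Slc12a7, of which Slc12a5, the neuronal one, reached 15.31 CPM in mouse t-203-1-4. None of these genes passed the adjusted p in edgeR.

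**Figure D4:**
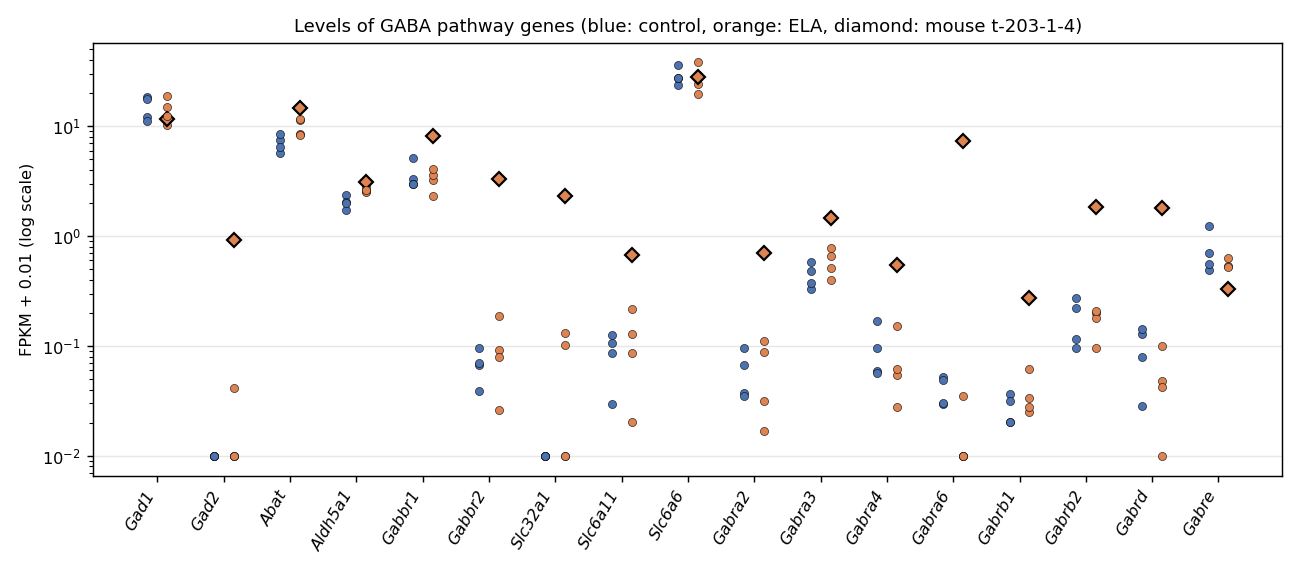
FPKM + 0.01 on a log axis for genes of GABA synthesis, breakdown, transport and reception (horizontal axis) in every control mouse (blue) and ELA mouse (orange), with mouse t-203-1-4 as a diamond. Gad1, Abat, Aldh5a1, Gabbr1 and Slc6a6 lie above 1 FPKM in every mouse, whereas Gad2, Gabbr2, Slc32a1 and Gabra6 do so, if at all, only in the diamond.

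The Dlx homeobox genes were included because they are known regulators of glutamate decarboxylase genes in forebrain interneurons and because Dlx3 is a tooth gene the study examined. All 6 had a positive log2 fold change, with and without mouse t-203-1-4, where 52.6% of all genes were positive with all mice. Dlx3 was higher at an unadjusted p below 0.05 (log2 fold change 0.72, SE 0.25, adjusted p 0.569 in edgeR). Dlx3 measured 120.5, 127.7, 163.8 and 259.2 CPM in the control mice. It measured 209.1, 237.5, 241.6, 332.7 and 364.5 CPM in the ELA mice. The groups overlapped in Dlx3, and likewise in Dlx1, Dlx2, Dlx5 and the remaining Dlx genes.

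Among 14409 genes with a mean of at least 1 CPM, those whose log2 CPM followed each member most closely over the 9 mice are given as a description. High values are to be found among so many genes over so few libraries, and the points share library and group. For Gad1 they were Dse, a dermatan sulfate epimerase, with a Pearson r of 0.986, followed by Dync1li2, Ptpra, Rell1 and Dhx40. For Abat they were Camta1, a calmodulin-binding transcription activator (r = 0.968), Gm43268, Rnf8, Cdh2 and Tmem151b. For Aldh5a1 they were the transcription factor gene Maf (r = 0.979), Abca4, Rnf187, Sgta and Eif4enif1. For Gabbr1 they were the protease gene Adamts9 (r = 0.975), Coro2b, Sema4g, Carmil3 and Spred3. Without the mouse farthest from the median of the member, these leading r were 0.982, 0.951, 0.966 and 0.932.

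Some reads could belong to neighbours on the other strand, since the strand setting of the counting is not given in the sources used here. Gad1 overlaps the antisense gene Gad1os, which had 1 to 20 reads per library, and Aldh5a1 overlaps 4932702P03Rik, with 0 to 7 reads, and 9330162012Rik, with 22 to 62 reads. Aldh5a1 itself had at most 479 reads per library.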

How the data were processed

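The values are raw counts by Ensembl gene identifier, deposited as whole numbers by the authors and made by a sequencing company, for first-molar enamel organs of 5 ELA and 4 control mice at postnatal day 12. The submitters' processing notes name CASAVA, HISAT and HISAT2; the sources used here give no counting program, strand setting or build. Of 54532 identifiers, 54409 are in GENCODE M21, with identical coordinates for 98.1% of the genes, and positions refer to GRCm38. Replicate libraries of a group differed by more than sampling noise. FPKM was computed from the gene length in the table.

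Groups were compared with edgeR 4.0.16 in R 4.3.3 (filterByExpr, count minimum 10; TMM; robust glmQLFit and glmQLFTest; Benjamini-Hochberg over 15909 genes; threshold 0.05), with no covariate. DESeq2 1.42.0, limma-voom 3.58.1, other scalings and filters, and fits without single mice or title numbers were alternatives. Scripts were tested on simulated data. Permutation tests used log2 CPM with a prior count of 2 and took every split of the mice. The members and lists were chosen with earlier results of these data known. Named were the members, from each list the 4 genes of lowest p, all compared GABA receptor and transporter genes, and the 5 genes most like each member; genes outside this rule (Gad2, Slc32a1, Gabra6, the overlapping antisense genes) were named after their values were seen. Some genes this rule takes are not reported here. Alternatives were run for the members and for leading genes of lists with a gene at an unadjusted p below 0.05, a choice made after seeing the data, as were the permutation tests and list counts without mouse t-203-1-4. Library totals were 18056774 to 32110160 counts, and floors and counting SDs cover counting error only. The methods of the paper describe 2 litters per group for qPCR, with the same numbers of males as here. Whether the title numbers mark these litters is not stated, so tests treating mice as independent may give p-values that are too small.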

Additional observations from a re-analysis of the deposited data

Results flagged for a closer look

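In groups of 4 or 5 mice, a value was marked where its gap to the nearest mouse, as a share of the range of the group, exceeded Dixon's 95% critical value for that number of mice. Of 46 groups of 23 genes, 4 met this, and chance marks about 1 in 20. Gabbr1 stood at 39.98 CPM in control mouse c-202-1-2, where the next control mouse had 25.68 CPM. The other 3 were values of ELA mouse t-203-1-4: Gabrb2 at 11.63 CPM, Gabbr2 at 22.26 CPM and Gnao1, a G protein subunit of neurons, at 42.11 CPM. The next ELA mice had 1.267, 1.174 and 10.56 CPM. The part of neuronal tissue in these values was not tested; the neuron markers given above were highest in the same library.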

How the results depend on the processing

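Gad1, Abat and Aldh5a1 kept their direction in all 23 alternatives, and no member passed the adjusted p in any. Leaving out 1 mouse moved the log2 fold change of Gabbr1 between -0.13 (without t-203-1-4) and 0.47, that of Gabrb2 between -0.039 and 1.87, and that of Gnao1 between -0.18 and 1.03. Without the mice titled t-203 these were -0.38, -0.28 and -0.47. The exact permutation p of Abat was 0.0857 without mouse t-203-1-4. Got1 passed the adjusted p in DESeq2 (log2 fold change 0.85), without a filter on low counts (0.85), without the mice titled t-205 (1.01) and with the title number as a random effect (0.86, adjusted p 0.0493, estimated correlation -0.17), but not with counts summed by title number (0.78, adjusted p 0.372). The SE of Got1 was 0.157 in that random-effect fit and 0.169 in limma-voom without it. With a negative correlation, the random-effect fit made no allowance for mice of a title number being alike. Of 433 values of 19 other genes, 425 kept direction and side of the threshold.

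The count of genes past the adjusted p in the whole table, 10 in edgeR, was 138 in DESeq2, 4 with plain library totals, 1 without the 10 most abundant genes and 38 without a filter. It was 0 to 25 with 1 mouse left out (25 without t-205-1-3), 1 without the mice titled c-202, 0 without c-204, 4 without t-203, 59 without t-205, 3 with counts summed by title number and 49 with that number as a random effect; the cause was not tested. No paired analysis was possible because the labels give no replicate numbers shared between the groups.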
